A study of Mus musculus with 9 samples.

Results

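S100 proteins are small calcium-binding proteins. The 10 members described here are S100a1, S100a4, S100a6, S100a8, S100a9, S100a10, S100a11, S100a13, S100a14 and S100a16. They were taken as the probes that carry one of these gene names on the array, and 10 of the 41174 probes matched, 1 for each gene. All 10 members were among the 18269 genes tested. Each probe was well above background in Cy5, the dye of the tumour cells, on all 9 arrays.

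The cells were mammary tumour cells of MMTV Wnt-1 and MMTV-Her2 mice, sorted as cells without green fluorescent protein. In these mice a viral promoter that is active mainly in mammary epithelium drives a transgene, either the Wnt-1 gene or the receptor gene Her2. The labels name both tumour models for every array, so the models cannot be told apart. The 5 arrays labelled Fzd hold cells treated with Fzd8-CRD, a soluble piece of the receptor Frizzled 8 that captures Wnt proteins before they reach the cell surface. The 4 arrays labelled Control have the same treatment text, so the control treatment is not given in the labels. Age, strain, time and dose are not given there either. The design text calls the arrays of each group biological replicates. The comparison asks how S100 transcripts differ between treated and control tumour cells.

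An S100 protein usually works as a dimer. Each chain has a pair of EF-hands, helix-loop-helix units whose loop holds a calcium ion, and calcium opens a surface that grips a target such as an annexin or a myosin. S100a8 and S100a9 form calprotectin, the most abundant protein complex of the neutrophil cytosol, and are also induced in some epithelia. S100a6, S100a10, S100a11, S100a13, S100a14, S100a16 and S100a1 are treated here as epithelial members. S100a4 is found in fibroblasts and leukocytes as well as in motile tumour cells.

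The arrays carried tumour-cell RNA in Cy5 and a pooled reference RNA in Cy3. The readouts compared were therefore the log2 ratio of Cy5 to Cy3 and the log2 intensity of Cy5 alone, both as Fzd8-CRD minus control. A gene was called when its p-value in limma, a linear model with moderated variances, was under 0.05 after Benjamini-Hochberg adjustment over all genes tested. The share of probes well above background in Cy5 was 52.5% to 60% on the Fzd8-CRD arrays and 63.8% to 70.8% on the control arrays. All 4 control arrays lay on 1 slide and the 5 Fzd8-CRD arrays on 4 other slides scanned 367 or 378 days later, so slide, scan day and treatment cannot be told apart. Control replicate 2 stood apart, with correlations of 0.618 to 0.737 with the other arrays. Main results that changed when it was left out are given with and without it, but not every gene. In the Cy3 reference alone, 10821 genes (59.2%) were called, and 6 of the 10 members were called lower there (31.4% of all genes), S100a6, S100a8, S100a10, S100a13, S100a14 and S100a16. The luminal and basal markers of mammary epithelium were all tested, 15 of 15 each. Fibroblast and endothelial markers were too, 12 of 12 each, so these counts do not tell the cell types apart.

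S100a6, S100a14 and S100a16 fell in Cy5 after Fzd8-CRD, and S100a16 also fell in the ratio. The same 3 members were lower in the Cy3 reference, which holds no tumour-cell RNA, at -0.59, -0.58 and -0.15. The part of this in the Cy5 calls was not tested. No member rose on either readout, where 6.6% (ratio) and 10.2% (Cy5) of all genes did. In Cy5, 3 of 10 members were called lower, against 8.82% of all genes called lower (19% in either direction). In the ratio, 1 of 10 was called lower, against 7.75% of all genes (14.3% in either direction). S100a16 was the 1 of 10 called on both readouts, and 7.96% of all genes were called in the same direction on both. All 3 calls belong to the 7 of 10 members treated here as epithelial, a grouping that was not tested. S100a4, S100a8 and S100a9 had wide spreads and passed neither test. The groups did not overlap for the 3 called members in Cy5 and for S100a16 in the ratio, against 12.7% and 11.7% of all genes lower without overlap.

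**Figure D1:**
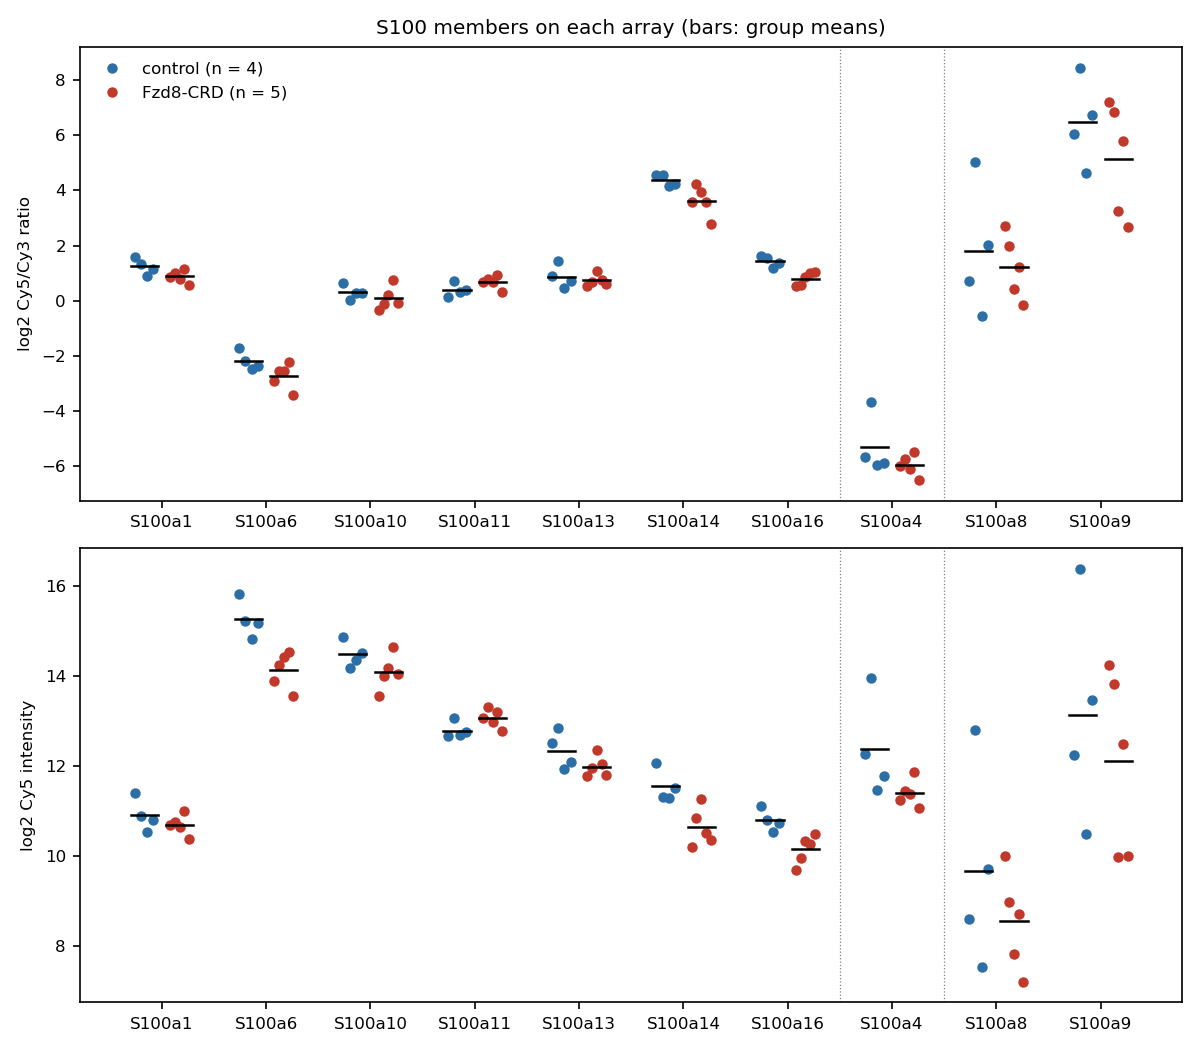
Log2 Cy5/Cy3 ratio (top) and log2 Cy5 intensity (bottom) of the 10 members on each array, with control arrays in blue (n = 4) and Fzd8-CRD arrays in red (n = 5), and bars for the group means. For S100a16 all Fzd8-CRD arrays lie below all control arrays in both panels, whereas S100a8 and S100a9 spread over more than 5 log2 units in each.

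The members lie on chromosome 3. RefSeq's annotation of GRCm38.p6 lists 12 protein-coding genes from S100a1 to S100a9 in a row, all of them S100 genes and 8 of them members. S100a11 and S100a10 follow after another 56 protein-coding genes. In the array design's coordinates (mm8), the 8 clustered probes lie between S100a1, at chr3:90597138-90597197 on the minus strand, and S100a9, at chr3:90778590-90778649 on the minus strand. The probes of S100a11 and S100a10 lie at chr3:93611499-93611558 and chr3:93649919-93649978 on the plus strand. S100a14 and S100a16, both called in Cy5, are neighbours in this row. S100a13, next to S100a14 on the other side, passed on neither readout.

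Because S100 genes resemble each other, the sequences of some probes are shown. The probes of S100a16 and S100a6 carry called values, and that of S100a8 is shown with them because it covers the calcium-binding loop. Each probe has 60 bases. They are printed 5′ to 3′ on the transcript strand, and capitals mark bases that encode a canonical EF-hand calcium-binding loop, found by reading the probe in all 3 frames.
S100a16: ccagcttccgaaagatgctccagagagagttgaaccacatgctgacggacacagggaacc
S100a6: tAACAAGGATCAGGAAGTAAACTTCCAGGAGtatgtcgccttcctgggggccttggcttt
S100a8: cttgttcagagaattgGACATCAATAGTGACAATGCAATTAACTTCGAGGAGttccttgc
The S100a8 probe holds a whole loop of 36 bases. The S100a6 probe begins inside the loop and holds 30 bases of it. The S100a16 probe holds none, and its genomic interval, chr3:90628053-90628304 on the plus strand, is 252 bases long, so that it crosses an intron. The S100a6 probe lies at chr3:90700165-90700224 and the S100a8 probe at chr3:90755783-90755842, both on the plus strand. Over all 45 pairs of member probes, the longest run of identical bases was 8. The probes were not compared with the transcripts of other S100 genes, so binding to those was not tested.

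S100a16 was the 1 member called on both readouts. Its log2 ratio was 1.62, 1.56, 1.17 and 1.36 on control replicates 1 to 4 and 0.53, 0.59, 0.86, 0.99 and 1.05 on Fzd8-CRD replicates 1 to 5. Every treated array lay below every control array. The mean was 1.43 ± 0.20 (SD, n = 4) in controls and 0.80 ± 0.23 (SD, n = 5) after Fzd8-CRD. The log2 ratio fell by 0.62 (SE 0.154, limma adjusted p = 0.0276), which makes the Cy5/Cy3 ratio 1.54 times higher in controls.

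In Cy5 alone, S100a16 read 11.11, 10.80, 10.52 and 10.74 on the control arrays and 9.68, 9.94, 10.33, 10.26 and 10.47 on the Fzd8-CRD arrays. The highest treated value lay just below the lowest control value. The log2 intensity fell by 0.66 (SE 0.189, limma adjusted p = 0.0391). Its Cy3 reference was lower by less, 9.59 ± 0.10 (SD, n = 5) against 9.74 ± 0.03 (SD, n = 4). Fzd8-CRD replicates 1 and 2 had the lowest S100a16 on both readouts. The ratio call was lost without Fzd8-CRD replicate 1 (-0.56), Fzd8-CRD replicate 2 (-0.57), control replicate 1 (-0.56) or control replicate 4 (-0.65), with limma adjusted p of 0.0562 to 0.0654. In Cy5 it was lost without any of Fzd8-CRD replicates 1, 2 and 4 and control replicates 1, 2 and 4, at -0.54 to -0.69. Scaling the arrays to each other left -0.07 in the ratio (limma adjusted p = 0.886).

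S100a6, also called calcyclin, binds annexins and the calcyclin-binding protein Cacybp, and it showed the greatest Cy5 difference of the called members. Its log2 Cy5 was 15.83, 15.23, 14.82 and 15.17 on the control arrays and 13.89, 14.24, 14.42, 14.54 and 13.55 on the Fzd8-CRD arrays. The groups did not overlap. Cy5 fell by 1.14 (SE 0.252, limma adjusted p = 0.0154), from 15.26 ± 0.42 (SD, n = 4) to 14.13 ± 0.41 (SD, n = 5), which makes controls 2.20 times higher.

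The S100a6 ratio did not pass. It was -1.71, -2.18, -2.48 and -2.37 in controls and -2.92, -2.54, -2.55, -2.24 and -3.42 after Fzd8-CRD. Fzd8-CRD replicate 4 lay above 2 control arrays. The difference was -0.55 with a 95% interval of -1.11 to 0.01 (limma adjusted p = 0.165), and it was -1.83 after scaling between arrays (limma adjusted p = 0.169). The Cy3 reference of S100a6 was itself lower on the Fzd8-CRD arrays, at 16.60 ± 0.08 (SD, n = 5) where controls had 17.18 ± 0.04 (SD, n = 4). The gap was -0.59. Its part in the Cy5 result was not tested.

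S100a14, a member found mainly in epithelia, read 12.07, 11.29, 11.29 and 11.52 in Cy5 on the control arrays. On the Fzd8-CRD arrays it read 10.19, 10.85, 11.26, 10.50 and 10.34. The groups did not overlap, but Fzd8-CRD replicate 3 came within a few hundredths of the lowest control. Cy5 fell by 0.91 (SE 0.247, limma adjusted p = 0.0319), from 11.54 ± 0.37 (SD, n = 4) to 10.63 ± 0.43 (SD, n = 5). The call was lost without any of Fzd8-CRD replicates 1, 4 and 5 and control replicates 1, 3 and 4, at -0.74 to -0.998, with limma adjusted p of 0.0502 to 0.0705.

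In the ratio, S100a14 had the lowest difference of the epithelial members without passing, -0.76 (95% interval -1.36 to -0.16, limma adjusted p = 0.0845). Controls read 4.58, 4.58, 4.15 and 4.24 and Fzd8-CRD arrays 3.59, 4.24, 3.94, 3.58 and 2.78. Only Fzd8-CRD replicate 2 reached the control range. The sign of this ratio turned under other scalings, to 0.53 with the scanner's own log ratio and 0.92 after scaling between arrays. The Cy3 reference of S100a14 was 7.11 ± 0.17 (SD, n = 5) on the Fzd8-CRD arrays and 7.69 ± 0.29 (SD, n = 4) on the control arrays.

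**Figure D2:**
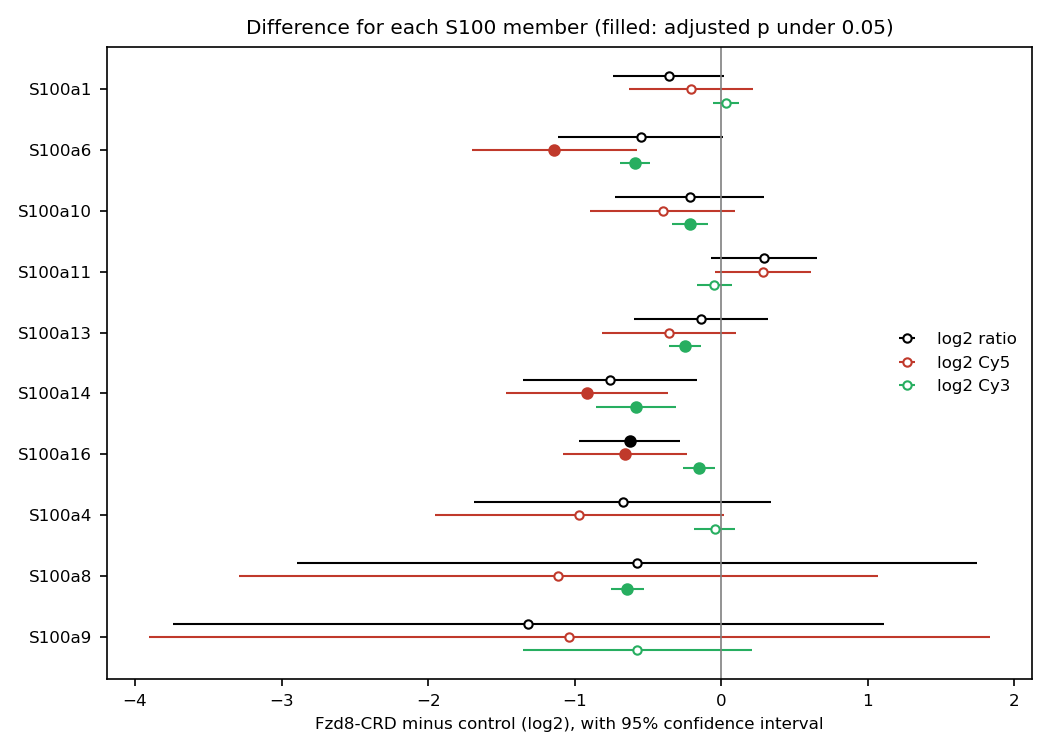
Fzd8-CRD minus control (log2, x axis) for each member in the ratio (black), Cy5 (red) and the Cy3 reference (green), with 95% confidence intervals of the limma fit and filled points where the adjusted p was under 0.05. S100a16 is the 1 member filled in both the ratio and Cy5, and 7 of the 10 Cy3 points are at or below -0.15.

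The other 4 epithelial members passed on neither readout, and 3 of them lay below 0. S100a1, best known from cardiac and skeletal muscle, differed by -0.36 in the ratio (95% interval -0.74 to 0.02) and -0.21 in Cy5 (-0.63 to 0.21). S100a13, which takes part in the release of leaderless cytokines, differed by -0.14 (-0.60 to 0.32) and -0.36 (-0.82 to 0.10). S100a10, the calcium-independent partner of annexin A2, differed by -0.22 (-0.72 to 0.29) and -0.40 (-0.89 to 0.09). These intervals include 0 and also reductions of the size seen for S100a16, apart from those of S100a13 in the ratio and S100a1 in Cy5.

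S100a11, a partner of annexin A1, was the only member above 0 on both readouts. Its log2 ratio was 0.14, 0.73, 0.31 and 0.39 in controls and 0.67, 0.80, 0.68, 0.94 and 0.33 after Fzd8-CRD. Control replicate 2 and Fzd8-CRD replicate 5 were the arrays that overlapped the other group. The difference was 0.29 in the ratio (95% interval -0.07 to 0.65, limma adjusted p = 0.242) and 0.29 in Cy5 (-0.04 to 0.61, limma adjusted p = 0.185). It passed the test with array weights, at 0.34 in the ratio (limma adjusted p = 0.042) and 0.37 in Cy5 (limma adjusted p = 0.02), and in the ratio after scaling between arrays, at 0.48 (limma adjusted p = 0.0434).

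Over the 7 epithelial members the median difference was -0.36 in the ratio and -0.40 in Cy5, beside -0.07 and -0.01 for all genes tested. Without control replicate 2 these medians were -0.33 and -0.50. After scaling between arrays the ratio median was 0.06. The 7 did not all move together. Over the 9 arrays, Pearson's r between pairs of them in Cy5 ran from -0.68 (S100a11 and S100a16) to 0.90 (S100a6 and S100a14).

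**Figure D3:**
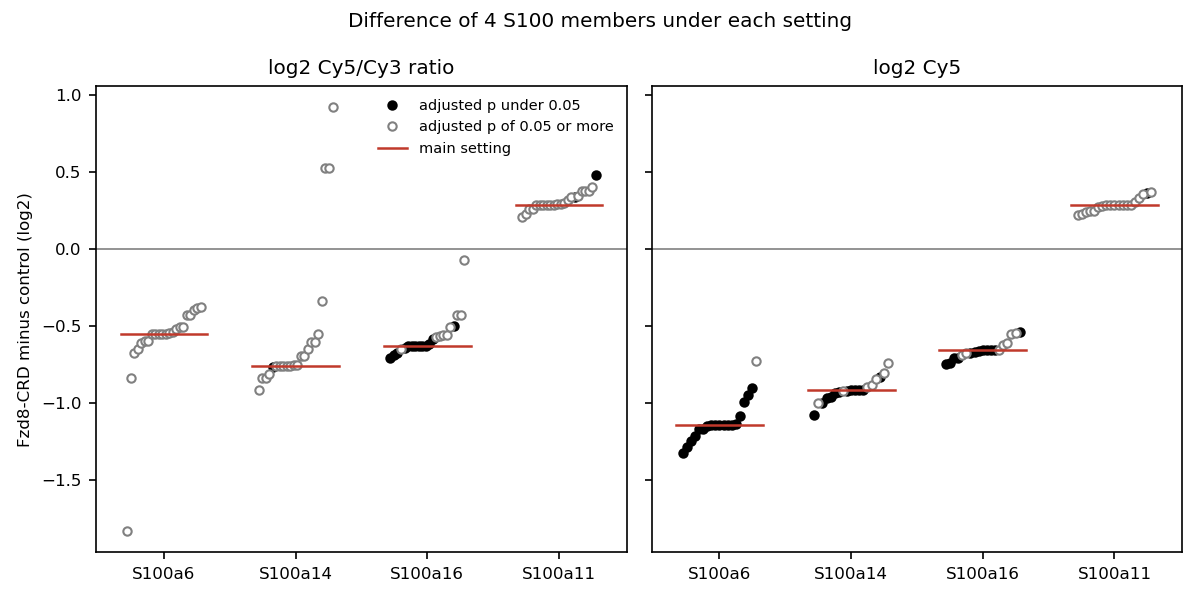
Fzd8-CRD minus control (log2, y axis) of S100a6, S100a14, S100a16 and S100a11 under the main setting (red bar) and each alternative in the ratio (left) and Cy5 (right), with filled points where the adjusted p was under 0.05. In Cy5 every point keeps its sign, whereas in the ratio S100a14 lies above 0 in 3 alternatives.

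S100a8 and S100a9 varied far more between arrays of one group than between the groups. Log2 Cy5 of S100a8 was 8.58, 12.81, 7.52 and 9.69 on the control arrays and 10.001, 8.97, 7.82, 8.71 and 7.19 on the Fzd8-CRD arrays. Control replicate 2 was the highest and Fzd8-CRD replicate 5 the lowest. The spread within controls was 5.29 and within Fzd8-CRD arrays 2.81, against a difference of -1.11 (95% interval -3.29 to 1.07, limma adjusted p = 0.428).

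For S100a9 the control arrays read 12.24, 16.38, 10.47 and 13.47 in Cy5 and the Fzd8-CRD arrays 14.24, 13.82, 9.96, 12.50 and 9.99. Control replicate 2 was again the highest, followed by Fzd8-CRD replicates 1 and 2. The difference was -1.04 (95% interval -3.91 to 1.83, limma adjusted p = 0.579). In the ratio S100a8 differed by -0.57 (-2.90 to 1.75, limma adjusted p = 0.725) and S100a9 by -1.31 (-3.74 to 1.11, limma adjusted p = 0.417).

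The median of these neutrophil members was -0.94 in the ratio and -1.07 in Cy5. Without control replicate 2 it was -0.08 and -0.01. S100a8 then stood at 0.50 in the ratio and -0.06 in Cy5, and S100a9 at -0.65 and 0.04. The epithelial medians moved by less when the same array was left out. The difference between the epithelial and neutrophil members was not tested.

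S100a8 and S100a9 were high and low on the same arrays. Over the 9 arrays, Pearson's r was 0.942 in Cy5 (exact permutation p = 9.37e-05, adjusted 0.000187) and 0.858 in the ratio (exact permutation p = 0.00211, adjusted 0.00211). Spearman's rho was 0.933 in Cy5 (exact permutation p = 0.00075, adjusted 0.00131) and 0.917 in the ratio (exact permutation p = 0.00131, adjusted 0.00131). The adjustment is over the 2 relations. With the 2 arrays farthest from the median of S100a8 left out, r over the other 7 was 0.928 in Cy5 and 0.901 in the ratio. With group means removed it was 0.941 and 0.866.

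The Cy3 channel of S100a9 was high on the same arrays as Cy5, although it holds the reference. Log2 Cy3 was 6.88, 8.59, 6.69 and 7.30 on the control arrays and 7.25, 7.37, 6.29, 6.67 and 6.37 on the Fzd8-CRD arrays. It was not well above background on Fzd8-CRD replicates 3 and 5. For S100a8, Cy3 was 8.19 to 8.29 on the control arrays and 7.47 to 7.71 on the Fzd8-CRD arrays, with no such rise on control replicate 2. The S100a9 ratio thus divides by a value that moved with its Cy5, and the part of this in the ratio was not tested.

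Neutrophil markers were high on the same control array, and so were markers of other non-epithelial cells. Of 22 markers in the list, 16 were tested and 0 were called by limma on either readout, with 3 at an unadjusted p under 0.05 in the ratio and 2 in Cy5. Without control replicate 2, the protease gene Mmp9 was called higher in the ratio, at 0.71 (limma adjusted p = 0.0211) against 0.11 with it. Itgam, an integrin of myeloid cells, and the chemokine receptor Cxcr4 had the smallest p in the ratio, at -0.37 and -0.77. The summed Cy5 intensity of the 16 was 24261 on control replicate 2, 5195 to 5315 on the other controls and 4530 to 8907 on the Fzd8-CRD arrays. The cystatin Stfa3, an inhibitor of cysteine proteases found in neutrophils, read 13.38 on control replicate 2 and 6.40 to 6.67 on the other 8 arrays in log2 Cy5. Retnlg, a resistin-like secreted protein, read 10.17 there and 6.16 to 7.39 elsewhere. Il1b, the inflammatory cytokine, read 12.30 there and 8.03 to 10.34 elsewhere. Csf3r, the receptor of the neutrophil growth factor G-CSF, read 8.44 there and 6.32 to 7.16 elsewhere. These 4 markers were chosen with their values known, and not every marker of the list followed S100a8. Over the 9 arrays, r with S100a8 in Cy5 was -0.36 for Mpo, 0.151 for Ltf and 0.173 for Cxcr4, and 0.549 to 0.977 for the other tested neutrophil markers. High r was not limited to neutrophil markers. It ran from -0.12 to 0.878 for lymphocyte markers and from -0.31 to 0.847 for macrophage markers. All these r include control replicate 2. The r of S100a9 was -0.55 with Mpo, 0.178 with Ltf and 0.191 with Cxcr4. Mpo and Ltf encode granule proteins of neutrophils. Of the defining markers, Cxcr2, Elane and Stfa2 were well above background on 0 Fzd8-CRD arrays and on 3, 1 and 2 control arrays, and Ly6g has no probe here.

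Control replicate 2 also had the highest summed Cy5 of 5 other marker lists. Lymphocyte markers summed to 8354 there and 1125 to 1774 on the other arrays, macrophage markers to 50999 against 10646 to 24526, and erythrocyte and platelet markers to 855881 against 665 to 45640. Fibroblast markers summed to 134348 against 18120 to 86912, and endothelial markers to 12017 against 2536 to 8969. The luminal and basal epithelial sums were not highest on this array. The high S100a8, S100a9 and S100a4 of control replicate 2 thus stood beside high markers of several cell types and not of neutrophils alone. In bulk RNA, fewer cells of a type and less RNA per cell cannot be told apart, and the part of RNA from neutrophils or the other cell types in the S100a8 and S100a9 values was not tested.

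**Figure D4:**
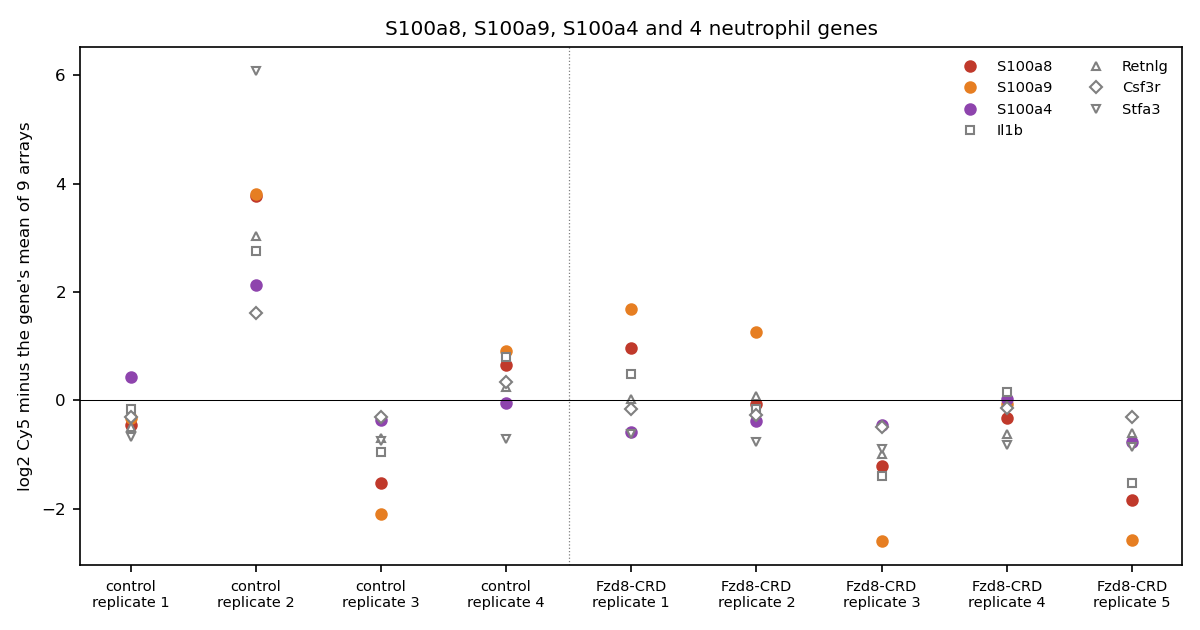
Log2 Cy5 of S100a8, S100a9, S100a4 (filled) and 4 neutrophil markers (open) on each of the 9 arrays, each as the deviation from the gene's mean over the arrays. On control replicate 2 all 7 genes lie at their highest, and on Fzd8-CRD replicates 1 and 2 S100a9 lies above its mean.

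The windows upstream of S100a8 and S100a9 are shown because these members move together. They hold the 250 bases before each transcription start, 5′ to 3′ on the gene's own strand, from RefSeq's promoter table (GRCm38.p6), at chr3:90668821-90669070 on the plus strand for S100a8 and chr3:90695722-90695971 on the minus strand for S100a9. Capitals mark matches to the motifs searched.
S100a8: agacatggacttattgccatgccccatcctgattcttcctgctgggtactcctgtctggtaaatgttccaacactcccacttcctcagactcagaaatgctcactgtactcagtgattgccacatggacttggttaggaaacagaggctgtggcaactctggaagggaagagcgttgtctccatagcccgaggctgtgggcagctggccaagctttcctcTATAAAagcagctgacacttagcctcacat
S100a9: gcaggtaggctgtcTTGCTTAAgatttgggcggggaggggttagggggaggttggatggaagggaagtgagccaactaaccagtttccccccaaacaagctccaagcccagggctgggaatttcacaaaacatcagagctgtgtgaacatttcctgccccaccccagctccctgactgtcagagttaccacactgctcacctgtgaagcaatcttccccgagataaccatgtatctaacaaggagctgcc
The motifs, searched on both strands, were TATAAA (the box of many core promoters), CTTTGA (the core of TCF/LEF sites, where Wnt signalling acts), TGANTCA (AP-1) and TTGCNNAA (C/EBP, factors of myeloid genes). These motifs occur in 12.4%, 13.8%, 6.75% and 9.56% of all 32851 windows of this length. The first occurs 30 bases before the start of S100a8 and 31 before that of S100a4, and S100a9 has a C/EBP match 236 bases before. S100a11 alone of the 8 members with a window has the TCF/LEF core, 172 bases before its start, and 2 AP-1 matches. One of the 2 windows of S100a16 has an AP-1 match 192 bases before its start. A match describes letters and not a bound site, and S100a10 and S100a14 are not in the promoter table.

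S100a4, known as metastasin, binds non-muscle myosin and is a marker of motile and mesenchymal cells. Its log2 ratio was -5.68, -3.66, -5.97 and -5.87 in controls and -6.01, -5.75, -6.10, -5.47 and -6.51 after Fzd8-CRD. Apart from control replicate 2, the groups interleaved. The difference was -0.67 in the ratio (95% interval -1.69 to 0.34, limma adjusted p = 0.327) and -0.97 in Cy5 (-1.96 to 0.02, limma adjusted p = 0.146). Without control replicate 2 it was -0.13 and -0.44. After scaling between arrays the ratio gave -3.39 (limma adjusted p = 0.148). The 12 fibroblast markers had 3 called lower and 0 higher in the ratio, among them Fap (-0.90) and Vim (-1.17). Of all genes, 7.75% were called lower there. Without control replicate 2, Fap was called lower (-0.78), Pdgfra was called higher (1.198, against 0.81 and no call with it), and Vim (-0.99) was not called. The summed Cy5 of the fibroblast list was 18120 to 52521 on the Fzd8-CRD arrays and 26203 to 134348 on the control arrays. Their part in the S100a4 values was not tested.

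Other S100 genes were looked at for the same pattern. Of 7 listed, 5 were tested, and 2 fell and 1 rose on both readouts. Of all genes, 7.96% were called in the same direction on both. S100a3, which lies between S100a16 and S100a4 in the row, fell by 1.23 in the ratio (SE 0.221, limma adjusted p = 0.00965) and by 0.94 in Cy5 (limma adjusted p = 0.0345). S100b, the glial member, fell by 0.64 (limma adjusted p = 0.0421) and by 0.65 (limma adjusted p = 0.0163). S100pbp, which encodes a protein that binds S100P and is no S100 protein itself, rose by 0.76 (limma adjusted p = 0.0116) and 0.75 (limma adjusted p = 0.0254). S100a5 and S100g passed on neither. S100a7a was above background on 3 control arrays and 0 Fzd8-CRD arrays and was not tested.

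Annexins are the calcium-dependent membrane-binding partners of S100a10, S100a11 and S100a6. Of 11 tested, 2 fell and 0 rose in the ratio, where 7.75% of all genes fell. In Cy5, 3 annexins fell and 0 rose, where 8.82% of all genes fell. Without control replicate 2, 4 fell in Cy5. Anxa1, the partner of S100a11, read 1.85, 0.16, 0.49 and 0.60 in the ratio of controls and -1.36, -1.21, 0.20, -0.75 and -1.38 after Fzd8-CRD. Only Fzd8-CRD replicate 3 reached the control range. It fell by 1.68 in the ratio (SE 0.411, limma adjusted p = 0.0271) and by 2.17 in Cy5 (limma adjusted p = 0.00898). Anxa2, the partner of S100a10, fell by 1.13 in the ratio (SE 0.276, limma adjusted p = 0.027) and by 1.45 in Cy5 (limma adjusted p = 0.00931). Anxa4 fell in Cy5 only, by 0.43. Beside these falls, S100a11 stood at 0.29 and S100a10 at -0.22 in the ratio, and the differences between partners were not tested.

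Receptors and targets of S100 proteins moved in both directions. Of 15 tested, 2 rose and 2 fell in the ratio, where 14.3% of all genes were called. In Cy5, 3 of the 15 rose and 3 fell, where 19% of all genes were called. Without control replicate 2, 2 rose and 3 fell in the ratio, and 3 rose and 4 fell in Cy5. Myh9, the non-muscle myosin heavy chain bound by S100a4, rose by 1.04 in the ratio (limma adjusted p = 0.0228) and 1.64 in Cy5 (limma adjusted p = 0.00294). Ahnak, a large scaffold bound by the complex of S100a10 and annexin A2, rose by 1.02 (limma adjusted p = 0.0237) and 1.10 (limma adjusted p = 0.0205). Bsg, a receptor of S100a9, fell by 0.98 (limma adjusted p = 0.0276) and 0.85 (limma adjusted p = 0.0247). Plau, the urokinase that activates plasminogen, which S100a10 binds at the cell surface, fell by 1.72 (limma adjusted p = 0.00195) and 1.30 (limma adjusted p = 0.00286). The receptors Ager and Tlr4, which sense S100a8 and S100a9 outside the cell, gave 0.06 and -0.49 in the ratio and did not pass there. Tlr4 fell in Cy5, by 0.83 (limma adjusted p = 0.0384).

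Epithelial markers give the setting of the epithelial members. Of 15 luminal markers, 4 fell and 0 rose in the ratio, among them Prom1 (-1.68), and 2 fell without control replicate 2. Of 15 basal markers, 5 rose and 0 fell, among them Lama3 (0.90) and Krt5 (0.80). In the ratio, 7.75% of all genes fell and 6.6% rose. The summed Cy5 of the luminal list was 300196 to 659349 on the Fzd8-CRD arrays and 503241 to 816813 on the control arrays. Endothelial markers fell in 11 of 12, with Icam2 at -1.70 and Pecam1 at -1.23, and macrophage markers in 4 of 15, with Chil3 at -1.65 and Ly6c1 at -1.56. With control replicate 2 left out, macrophage markers fell in 3 of 15, and their median moved from -0.87 to -0.52. Of 11 lymphocyte markers 0 were called by limma in the ratio (1 at an unadjusted p under 0.05), and Cd3e fell by 0.44 without control replicate 2. Of 6 erythrocyte and platelet markers 3 fell, with Hba-a1 at -4.31 and Hbb-bt at -6.47. With the same array left out these values were -3.49 and -5.36, and the median of the list was -1.24 in place of -2.36. The part of these cell types in the S100a6, S100a14 and S100a16 values was not tested.

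The genes whose log2 ratio followed each member most closely over the 9 arrays were found by Pearson's r among all genes tested. Such ranks pick the highest of many values and are a description. S100a8 was followed by Wfdc21 (0.956), Ifitm1 (0.940) and Prok2 (0.932), and S100a9 by Ubl5 (0.940), Il1b (0.934) and AK006763 (0.927). Wfdc21 and Prok2 were dim, each well above background in Cy5 on only 2 Fzd8-CRD and 2 control arrays. S100a4 was followed by Rexo2 (0.986), TC1677080 (0.985) and Guca1b (0.984). The highest control log2 ratio of these 3 genes was 1.42, 3.86 and 1.99, and the highest Fzd8-CRD one -0.46, 1.68 and 0.59. Their r includes control replicate 2, where S100a4 stood apart, and r without that array was not computed. S100a16 was followed by Ptcd1 (0.972), Pemt (0.965) and Kcnj15 (0.962). S100a6 was followed by Cers2 (0.949), Ccdc120 (0.949) and Bglap (0.939), and S100a14 by Trib1 (0.975), Bglap (0.964) and Mrps18a (0.959), so that Bglap stood in both. S100a1 was followed by Casc1 (0.968), N4bp2l2 (0.963) and Mrps30 (0.942). S100a10 was followed by Arih2 (0.957), Rnf19a (0.942) and Cryaa (0.938). S100a11 was followed by LOC670046 (0.989), Tcp11l2 (0.929) and Olfr124 (0.921), and S100a13 by BC024659 (0.936), Stom (0.926) and Dnajb2 (0.924). In Cy5 the same pairs gave lower r in most cases, such as 0.302 for S100a16 and Kcnj15. S100a9 and Il1b, at 0.943, and S100a6 and Bglap, at 0.957, gave a higher r there.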

How the data were processed

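Tumour-cell RNA (Cy5) and pooled reference RNA (Cy3) were hybridised to 9 Agilent mouse arrays. Linear spot intensity values of both dyes and the scanner's own log10 ratio come, per the file headers, from Feature Extraction 9.5.3.1. A table the authors deposited gives one linear ratio for each probe and array, and on the log2 scale it matched the scanner values at r = 1. The labels name the reference in 3 ways (universal mouse, pooled strains, universal human), and a ratio is therefore no level.

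Background was corrected with normexp (offset 50) in limma 3.58.1 under R 4.3.3. The offset can understate differences of dim genes, but does not always do so. For S100a14 the ratio difference was -0.76, against -0.60 with an offset of 16 and -0.34 without background correction. Ratios were normalized by loess within arrays and Cy5 by quantiles between arrays, on the log2 scale computed from the deposited intensities. Outlier spots (1229) were left out. Kept were 26835 probes that passed the scanner's background test in Cy5 on 4 or more arrays, and of these the brightest for each gene. The number of arrays limits the precision. In simulated data of 18191 genes, a change of each size was planted in 50 genes. A change of -1 was recovered in 54% of its genes and one of 1 in 36%, and the gap between these shares was not tested. A change of 0.5 was recovered in 6% and one of 2 in 84%. The simulated noise held no slide or scan-day effect.

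The members and gene lists were chosen with earlier results of these data known, so no p-value is given for a list. Named genes are the members, up to 4 genes with the smallest p per list of S100 partners, up to 2 per cell type list and the 3 nearest by correlation. Stfa3, Retnlg, Il1b, Csf3r, Ager, Tlr4, Mpo, Ltf, Mmp9, Pdgfra and Cd3e were chosen with their values known. Some genes that this rule names are not reported here. Other settings tried concerned background, normalization, filters, probes of a gene, array weights, slide and leaving out each array.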

Additional observations from a re-analysis of the deposited data

Results flagged for a closer look

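In the log2 ratio of S100a4, control replicate 2 stood at -3.66 while the other 3 control arrays lay between -5.97 and -5.68. The gap to its nearest neighbour was 0.875 of the range of the group, above Dixon's critical value for 4 samples. This was the 1 group so marked among 40 groups examined, and chance marks about 1 in 20. The same array was highest for S100a8, S100a9 and the neutrophil markers Stfa3, Retnlg, Il1b and Csf3r, and for the summed Cy5 of the lymphocyte, macrophage, erythrocyte, fibroblast and endothelial markers.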

How the results depend on the processing

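The number of arrays and the slides limit these results, since slide and treatment cannot be told apart. No paired analysis was possible because the labels carry no replicate numbers that link arrays of both groups. In the ratio, 1 member was called in the main setting and 0 with median centring, the deposited table, the scanner's log ratio or uncorrected background. It was 2 with array weights (1 higher and 1 lower), 2 with slide as a random block and 6 in the Cy3 reference alone. Leaving out each array gave 0 to 1 members and 1340 to 3093 genes, against 2621 in the main setting. Genes called were 613 with median centring, 6127 with array weights, 5502 with the slide block and 10821 in Cy3. In Cy5, members called were 0 with the scanner's processed signal and 1 to 3 when each array was left out, and genes called were 6672 with array weights, 5261 with the slide block and 2130 to 3494 when each array was left out, against 3480.

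Directions that turned in the ratio, none past the threshold, were these. Under the scanner's log ratio or the deposited table, S100a9 was 0.82 and S100a14 0.53. After scaling between arrays, which multiplies each array's ratios by a factor, S100a1 was 0.0625, S100a9 0.78, S100a13 0.23 and S100a14 0.92. With array weights S100a8 was 0.95 and S100a13 0.13. Leaving out each array gave -1.37 to 0.50 for S100a8 and -0.28 to 0.0475 for S100a13, highest without control replicate 2. In Cy3 alone, which is the reference and no ratio, S100a1 was 0.031 and S100a11 -0.0467. In Cy5, array weights gave S100a1 0.0324, S100a8 0.41 and S100a9 0.84, and leaving out each array gave -1.92 to 0.0441 for S100a9. Apart from the scaling, the cause was not tested. S100a4, S100a6, S100a10 and S100a16 kept their direction under all 22 alternatives in the ratio and all 18 in Cy5. The 22 count the Cy3 reference alone, which holds no tumour-cell RNA and cannot bear on the direction of the ratio. They also count the scanner's log ratio and the deposited table, which gave the same differences. The size of the ratio difference moved with the scaling between arrays. It went from -0.67 to -3.39 for S100a4, from -0.55 to -1.83 for S100a6 and from -0.62 to -0.07 for S100a16. The S100a6 Cy5 call was lost under 1 alternative, the scanner's processed signal (-0.73, limma adjusted p = 0.0807). Centring Cy5 on the 75th percentile moved the median of all genes to 0.23 and the share of calls that were higher to 75.2%, against 53.7% in the main setting and 38.4% with the processed signal, and the share in the ratio was 46%, or 56.1% with the scanner's log ratio and 57.2% with the deposited table.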
